A study of Rattus norvegicus with 18 samples.

Results

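The 10 enzymes of the glycolysis trunk were followed by their transcripts in rat kidney cells exposed to chlorothalonil, from the hexokinases Hk1 and Hk2 through Gpi, Pfkm, Tpi1, Gapdh, Pgk1, Pgam1 and Eno1 to Ldha. The members were taken by symbol from the array's annotation, using probe sets with 1 symbol that are not array controls, and the brightest probe set by mean over 18 arrays stood for each gene. Of the 10 members, 9 had such a probe set and were tested among 9148 genes. Gapdh had none: its brightest probe set carries both Gapdh and the related Gapdhl10 as symbols and is called the shared probe set here, and the other 3 Gapdh probe sets are array controls. Gapdh is therefore described through these 4 probe sets, tested among 16686 probe sets.

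The study used NRK-52E, a line described in its labels as kidney proximal tubule epithelium of the Osborne-Mendel rat. At confluence they were given 1.1 µM of the organochlorine fungicide chlorothalonil in 0.1% DMSO, or 0.1% DMSO without it, for 6, 24 or 72 h. The 6 groups hold 3 arrays each, labelled as biological replicates, and all cells share 1 line and the DMSO vehicle. Values are the deposited log2 expression values, and a transcript is called at background in a group where none of its 3 arrays exceeded log2 4.

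Glycolysis splits glucose into pyruvate in the cytosol, and lactate dehydrogenase then turns pyruvate into lactate while it restores oxidised NAD. Hexokinase and phosphofructokinase are the regulated steps of the upper pathway, and the lower pathway, from triose phosphate to pyruvate, returns ATP. Gapdh oxidises glyceraldehyde 3-phosphate through a cysteine thiol in its active site. Chlorothalonil reacts with thiols, and in fungi this enzyme is a known target. Proximal tubule cells in the kidney burn mostly fatty acids and make glucose, while cultured lines rely more on glycolysis. Expression arrays read transcripts and give no measure of enzyme activity.

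Several facts of the whole series bear on these members. Correlations between arrays of 1 group lay between 0.992 and 0.998. Of 12 measured proximal tubule markers, none exceeded log2 4 on every array and 10 exceeded it on none, among them the endocytic receptors Lrp2 and Cubn. Of 6 epithelial markers, Krt8 and Tjp1 exceeded log2 4 on all 18 arrays, while Krt18, Krt19, Cdh1 and Epcam did so on none. Of 6 fibroblast markers, 1 exceeded it on all 18 arrays, the collagen gene Col1a1, and Pdgfra, Dcn and Lum did so on none. Of 3 measured podocyte markers, Wt1 exceeded it on all 18 arrays, and Nphs1 and Podxl on none. The DMSO 6 h replicate 2 array had the lowest mean for the hybridization controls, 10.4, and the lowest array weight, 0.341.

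Poly-A controls, bacterial RNAs that are usually added before labelling in a fixed amount, were brighter on treated arrays at each time. Their mean was 10.6 ± 0.21 on treated arrays, against 9.98 ± 0.093 on DMSO arrays at 6 h (SD, n = 3 each). At 24 h the values were 10.9 ± 0.31 on treated arrays and 9.79 ± 0.71 on DMSO arrays, and at 72 h they were 10.7 ± 0.21 on treated arrays and 10.0 ± 0.11 on DMSO arrays. Scaled to these controls, the median treatment change of all genes moved to -0.62 at 6 h, -1.02 at 24 h and -0.60 at 72 h, against -0.01, 0.06 and 0.07 on the deposited scale. The share of all genes called was counted on the deposited scale only. Counts of members called after this scaling therefore stand without such a share and are a description only. The hybridization controls were also brighter on treated arrays at 72 h, from 11.81 to 11.86, against 11.51 to 11.61 on DMSO arrays. At 24 h they overlapped, from 11.64 to 11.88 on treated and from 11.50 to 11.73 on DMSO arrays, and they overlapped at 6 h as well. What the shift of the poly-A controls stands for, and what part of it the hybridization controls share, was not tested. Every direction below is therefore relative to the other genes of the same arrays. Neither RNA per cell nor the number of cells can be read from such bulk RNA.

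The upstream sequences of 4 members are shown because Gapdh, Tpi1 and Pgam1 were higher with chlorothalonil at 72 h and Ldha was called in no treatment comparison. Each run is the 250 bases before a transcript start given in a promoter table from RefSeq on assembly GRCr8, written in the direction of transcription. For Tpi1, Pgam1 and Ldha it lies directly before the annotated gene, while for Gapdh it lies inside the span annotated for the gene. Capitals mark the letters ACGTG or GCGTG on either strand, which form the core that hypoxia-inducible factors bind. Pgk1, which was also higher at 72 h, is not in the table of promoters.
Tpi1, chr4:159305089-159305338, minus strand: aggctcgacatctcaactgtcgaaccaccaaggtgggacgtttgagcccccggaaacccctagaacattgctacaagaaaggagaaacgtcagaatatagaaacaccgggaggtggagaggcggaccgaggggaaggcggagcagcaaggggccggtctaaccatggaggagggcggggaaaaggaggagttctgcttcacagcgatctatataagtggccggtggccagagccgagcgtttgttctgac
Gapdh, chr4:159652468-159652717, minus strand: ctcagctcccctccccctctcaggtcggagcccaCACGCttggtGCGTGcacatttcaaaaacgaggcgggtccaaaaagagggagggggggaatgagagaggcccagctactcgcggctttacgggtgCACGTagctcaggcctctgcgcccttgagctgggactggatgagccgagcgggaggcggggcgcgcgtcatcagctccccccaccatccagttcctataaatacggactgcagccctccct
Pgam1, chr1:250672902-250673151, plus strand: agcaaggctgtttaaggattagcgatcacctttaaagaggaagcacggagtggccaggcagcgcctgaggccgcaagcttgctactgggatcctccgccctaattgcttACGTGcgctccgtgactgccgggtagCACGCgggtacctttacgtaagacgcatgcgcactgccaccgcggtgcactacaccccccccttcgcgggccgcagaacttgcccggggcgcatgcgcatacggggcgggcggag
Ldha, chr1:106507842-106508091, plus strand: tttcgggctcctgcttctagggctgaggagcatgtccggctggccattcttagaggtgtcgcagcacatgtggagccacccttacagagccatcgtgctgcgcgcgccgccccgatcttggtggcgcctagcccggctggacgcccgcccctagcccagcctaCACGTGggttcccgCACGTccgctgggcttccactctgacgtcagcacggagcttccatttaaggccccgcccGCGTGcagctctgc
Tpi1 held no match in this window. Gapdh held 1 match to ACGTG and 2 to GCGTG, and Pgam1 held 1 of each. Ldha held 3 matches to ACGTG, of which a pair are the overlapping strands of a single CACGTG, the E-box read by Myc and related factors, and 1 match to GCGTG. Among all windows, ACGTG was found in 16.6% and GCGTG in 25.9% of 33469 of this length, CACGTG in 5.59%, and at least 1 of the first pair in 36.7%. Of the 9 members in the table, 6 had a window with ACGTG or GCGTG; Hk1 and Eno1 are listed with 2 windows each. A match describes letters only and is not a measured binding site.

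Between 24 and 72 h in DMSO, most of the trunk fell. Of the 9 tested members, 7 were lower at 72 h and none was higher, with a median log2 change of -1.07, against 0.08 over all genes. Among all genes tested, 24.3% were called lower in this comparison, 36.3% were called higher, and 60.7% were called in either direction. The 7 were Hk2, Gpi, Tpi1, Pgk1, Pgam1, Eno1 and Ldha, while Hk1 and Pfkm were not called. Scaled to the poly-A controls, 6 members were called, all lower.

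Hk2, the inducible hexokinase that commits glucose to the cell, had 2.89, 2.88 and 2.91 on DMSO arrays at 72 h, against 5.54, 6.44 and 4.43 at 24 h. All 3 arrays at 72 h lay at background, so the fall was at least 2.77-fold (limma, adjusted p = 1.26e-05). The 24 h arrays spread over more than any other member's group, while the 72 h arrays were tight. With chlorothalonil the arrays at 72 h read 3.26, 3.21 and 2.89, against 6.99, 7.07 and 6.80 at 24 h. Treated cells thus also reached background, at least 7.74-fold below their 24 h level (limma, adjusted p = 9.4e-08).

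Tpi1, which interconverts the triose phosphates, had 12.39, 12.50 and 12.43 on DMSO arrays at 72 h, against 13.65, 13.88 and 13.64 at 24 h. The groups were well apart, and the change was -1.28 ± 0.075 (SE; limma, adjusted p = 2.1e-09). Gapdh moved alike on its shared probe set, with 14.06, 14.11 and 14.06 at 72 h, against 15.37, 15.40 and 15.31 at 24 h. Its change was -1.28 ± 0.076 (SE; limma over all probe sets, adjusted p = 4.66e-09), and all 4 Gapdh probe sets fell, by between 1.22 and 1.64 on the log2 scale. In that fit 25.6% of probe sets were called lower and 61.1% were called.

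Eno1, the enolase that makes phosphoenolpyruvate, changed by -1.11 ± 0.11 in DMSO (SE; limma, adjusted p = 5.09e-07). Pgk1, which makes the first ATP of the lower pathway, changed by -1.08 ± 0.056 (SE; limma, adjusted p = 6.4e-10). Gpi, which turns glucose 6-phosphate into fructose 6-phosphate, changed by -1.07 ± 0.065 (SE; limma, adjusted p = 3.76e-09). None of these 3 had overlapping groups. Ldha, which closes the path to lactate, changed by -0.83 ± 0.069, and Pgam1, the phosphoglycerate mutase, by -0.40 ± 0.069 (SE; limma, adjusted p = 9.94e-08 and 0.000138). Hk1, the constitutive hexokinase, differed by -0.17 and Pfkm, the muscle-type phosphofructokinase, by -0.02, and neither passed the test.

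With chlorothalonil, 7 members were lower and 2 higher at 72 h than at 24 h; 33.3% and 39.5% of all genes were called lower and higher, and 72.9% in either direction. The 2 higher members were Pfkm, by 0.72 ± 0.094, and Hk1, by 0.23 ± 0.091 (SE; limma, adjusted p = 5.69e-06 and 0.035). Eno1 fell by 1.34, Tpi1 by 1.16, Ldha by 0.90, Gpi by 0.63 and Pgam1 by 0.45, and Hk2 fell to background as above. Gapdh fell by 0.82 on its shared probe set (limma over all probe sets, adjusted p = 2.32e-07). Pgk1 changed by -0.42 ± 0.056 in treated cells, against -1.08 in DMSO, and the difference of the treatment effects was 0.66 ± 0.079 (SE; limma, adjusted p = 5.54e-06). Scaled to the poly-A controls, 4 members were called, 1 higher and 3 lower.

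**Figure D1:**
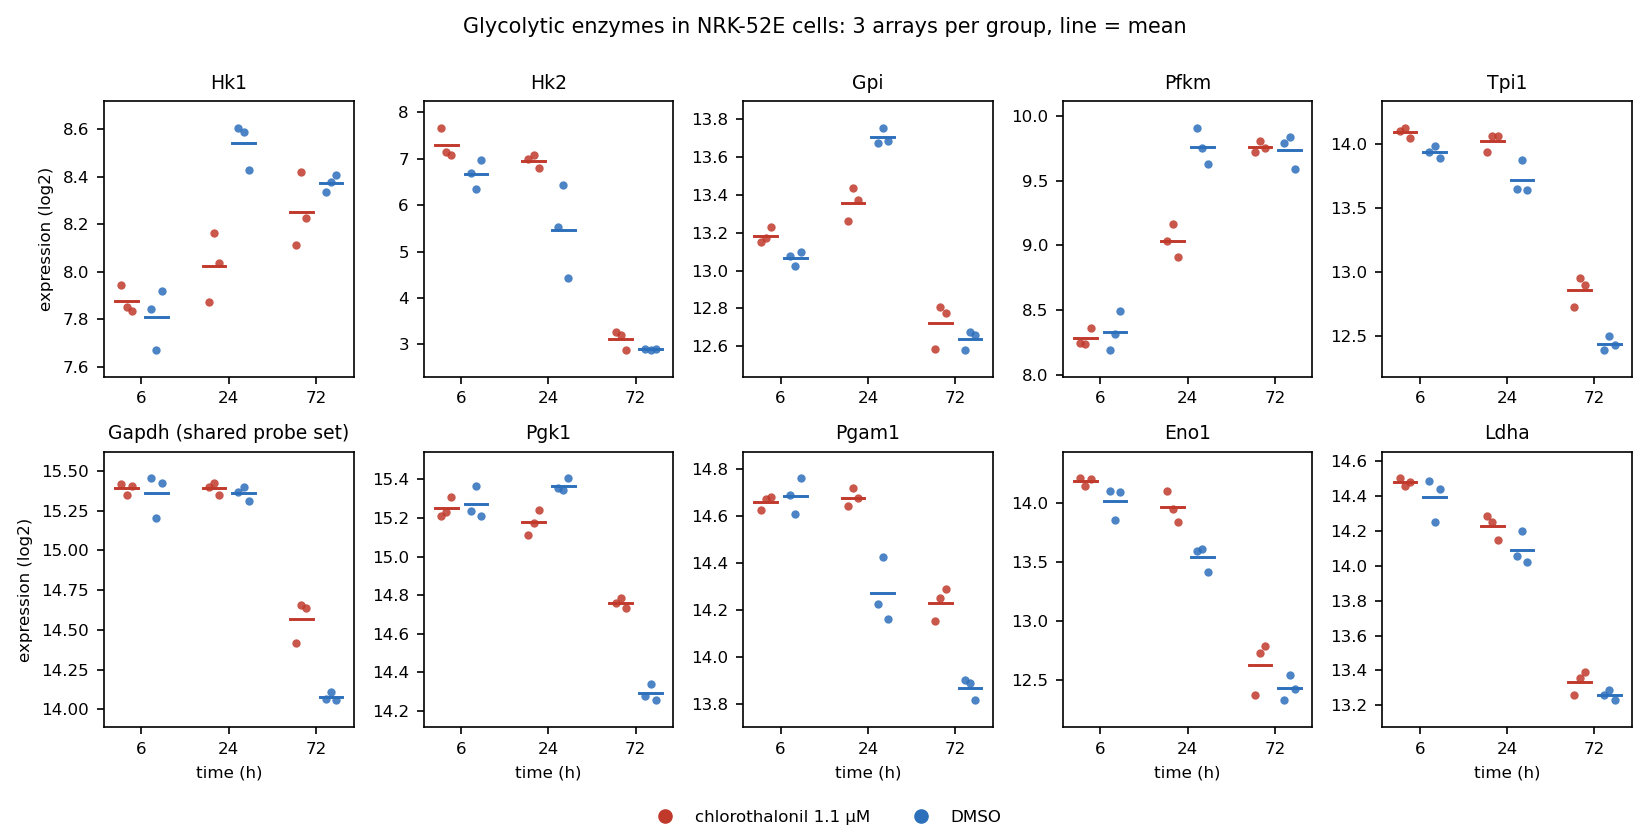
Log2 expression (y) of the 10 members at 6, 24 and 72 h (x) in chlorothalonil arrays (red, left) and DMSO arrays (blue, right); points are arrays, lines are means of 3 arrays, and each panel has its own y range. Most members sit lower at 72 h in both groups, Hk2 ends between 2.88 and 3.26, and Gapdh is shown by its shared probe set.

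From 6 to 24 h in DMSO, the members split. Of 9, 8 were called, 3 higher and 5 lower, and 72.9% of all genes were called, 32.9% higher and 40.0% lower. Pfkm rose by 1.43 ± 0.094, Hk1 by 0.73 ± 0.091 and Gpi by 0.64 ± 0.065 (SE; limma, adjusted p = 2.83e-09, 3.24e-06 and 3.73e-07). Eno1, Pgam1, Ldha and Tpi1 fell by 0.48, 0.42, 0.30 and 0.22, and Hk2 fell by 1.20 with a SE of 0.34 and overlapping groups (limma, adjusted p = 0.00514). Gapdh did not differ beyond its error, at 0.00 with a 95% interval from -0.16 to 0.16, on its shared probe set. In chlorothalonil over the same interval, 3 of 9 members were called and 59.6% of genes, 34.6% higher and 24.9% lower: Pfkm rose by 0.76 and Gpi by 0.17, and Ldha fell by 0.25. Under poly-A scaling, 4 members were called in DMSO, and in chlorothalonil limma called none, with none at an unadjusted p under 0.05.

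At 6 h no member differed between chlorothalonil and DMSO by the test. None of 9 was called by limma after adjustment, and none had an unadjusted p under 0.05, while 59.6% of all genes were called. Arrays of the 2 groups did not overlap for 4 of 9 members, Hk2, Gpi, Tpi1 and Eno1, all higher in treated cells, and 66.7% of all genes showed such a separation. The median log2 change of the members was 0.08, and all genes had -0.01. Without DMSO 6 h replicate 2, limma also called none, with 1 member at an unadjusted p under 0.05.

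Tpi1 came nearest to the threshold, with 14.10, 14.13 and 14.05 on treated arrays and 13.93, 13.99 and 13.89 on DMSO arrays. Its change of 0.16 had a 95% interval from -0.00 to 0.31 (limma, adjusted p = 0.0854). Hk2 had 7.66, 7.15 and 7.08 on treated arrays, against 6.70, 6.35 and 6.96 on DMSO arrays. Every treated Hk2 array lay above every DMSO array, and the change was 0.63 with a SE of 0.34 (limma, adjusted p = 0.128). This SE draws on the spread of all 6 groups. The SD of Hk2 was 0.32 on treated and 0.31 on DMSO arrays at 6 h, against 1.01 on DMSO arrays at 24 h. Gapdh had 15.42, 15.35 and 15.41 on treated arrays, against 15.45, 15.20 and 15.43 on DMSO arrays. The groups overlapped, and the change was 0.03, with a 95% interval from -0.13 to 0.19 (limma over all probe sets, adjusted p = 0.765); 54.1% of probe sets were called. Centring each array on its median called 4 members at 6 h, Gpi, Tpi1, Eno1 and Ldha, all higher by 0.17 to 0.26, and leaving out either DMSO 24 h replicate 2 or replicate 3 called Hk2 (limma, adjusted p = 0.0354 and 0.0213).

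At 24 h the trunk moved in both directions. Of 9 members, 8 were called, 4 higher and 4 lower in chlorothalonil, and among all genes 70.2% were called, 39.1% higher and 31.1% lower. Hk1, Gpi and Pfkm, which act above the triose phosphates, were lower, as was Pgk1 of the lower pathway, while Hk2, Tpi1, Pgam1 and Eno1 were higher. On the poly-A scale Tpi1, Pgam1 and Eno1 were lower instead, at -0.77, -0.67 and -0.65, and Hk2 was 0.41 higher but no longer called (limma, adjusted p = 0.248). On that scale 6 members were called, all lower, among them Hk1, Gpi, Pfkm, Pgk1 and Ldha. Tpi1, Pgam1 and Eno1 were therefore not all called, and all genes had a median of -1.02. Without DMSO 24 h replicate 1, whose controls were the dimmest, Tpi1, Pgam1 and Eno1 read -0.40, -0.28 and -0.22, and the median was -0.59.

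Pfkm, the enzyme of the committed step, had 9.04, 9.16 and 8.91 on treated arrays, against 9.91, 9.75 and 9.63 on DMSO arrays. All treated arrays lay below all DMSO arrays, and the change was -0.73 ± 0.094 (SE; limma, adjusted p = 5.78e-06), 1.65-fold lower. A second Pfkm probe set was also lower, by -1.01 ± 0.24 (SE; limma over all probe sets, adjusted p = 0.00194). Hk1 had 7.87, 8.16 and 8.04 on treated arrays, against 8.60, 8.59 and 8.43 on DMSO arrays. Its groups were apart as well, and it was 1.43-fold lower, by -0.52 ± 0.091 (SE; limma, adjusted p = 0.000125).

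Gpi had 13.26, 13.44 and 13.37 on treated arrays, against 13.68, 13.76 and 13.69 on DMSO arrays. This was a smaller separation without overlap, -0.35 ± 0.065 (SE; limma, adjusted p = 0.000214). Pgk1 differed the least of the called members, by -0.19 ± 0.056, with 15.11, 15.18 and 15.24 on treated arrays and 15.35, 15.34 and 15.41 on DMSO arrays (SE; limma, adjusted p = 0.00706). Its second probe set read -0.11 and was not called, and the mean of its probe sets gave -0.12 (limma, adjusted p = 0.183), so the Pgk1 call at 24 h rests on the brightest probe set.

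Hk2 was the member with the widest change at 24 h, 2.8-fold higher with chlorothalonil. Its arrays read 6.99, 7.07 and 6.80 in treated cells, against 5.54, 6.44 and 4.43 in DMSO cells. All treated arrays lay above all DMSO arrays, and the change was 1.48 ± 0.34 (SE; limma, adjusted p = 0.00121), 0.96 without DMSO replicate 3 and 1.97 without DMSO replicate 2. From 6 to 24 h Hk2 differed by -0.34 in treated cells, not called, and by -1.20 in DMSO cells. The difference of the treatment effects over that interval was 0.86 and was not called (limma, adjusted p = 0.134).

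Eno1 had 14.11, 13.95 and 13.84 on treated arrays, against 13.59, 13.61 and 13.42 on DMSO arrays. It was higher by 0.43 ± 0.11 (SE; limma, adjusted p = 0.00246), with no overlap. Pgam1 had 14.64, 14.72 and 14.67 on treated arrays, against 14.22, 14.43 and 14.16 on DMSO arrays. It was higher by 0.41 ± 0.069 (SE; limma, adjusted p = 7.7e-05). Tpi1 had 13.94, 14.06 and 14.06 on treated arrays, against 13.65, 13.88 and 13.64 on DMSO arrays, and was higher by 0.30 ± 0.075 (SE; limma, adjusted p = 0.00211). Ldha had 14.28, 14.25 and 14.15 on treated arrays, against 14.05, 14.20 and 14.02 on DMSO arrays. The groups overlapped through DMSO replicate 2, and Ldha was not called, at 0.14 with a 95% interval from -0.01 to 0.28 (limma, adjusted p = 0.0916). Without that array it was called, at 0.19 (limma, adjusted p = 0.0322).

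Gapdh itself showed no detectable difference at 24 h on the deposited scale. Its shared probe set had 15.40, 15.43 and 15.35 on treated arrays, against 15.37, 15.40 and 15.31 on DMSO arrays. The arrays of both groups interleaved, and the change was 0.03, with a 95% interval from -0.13 to 0.19 (limma over all probe sets, adjusted p = 0.743). The 3 control probe sets differed by -0.00 to 0.04, and none was called, while 64.1% of probe sets were. On the poly-A scale the shared probe set was called lower, by -1.04, near the all-gene median of -1.02. The highest value in the whole table was 16.1, and whether probe sets this bright were limited by the scanner's range was not tested.

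**Figure D2:**
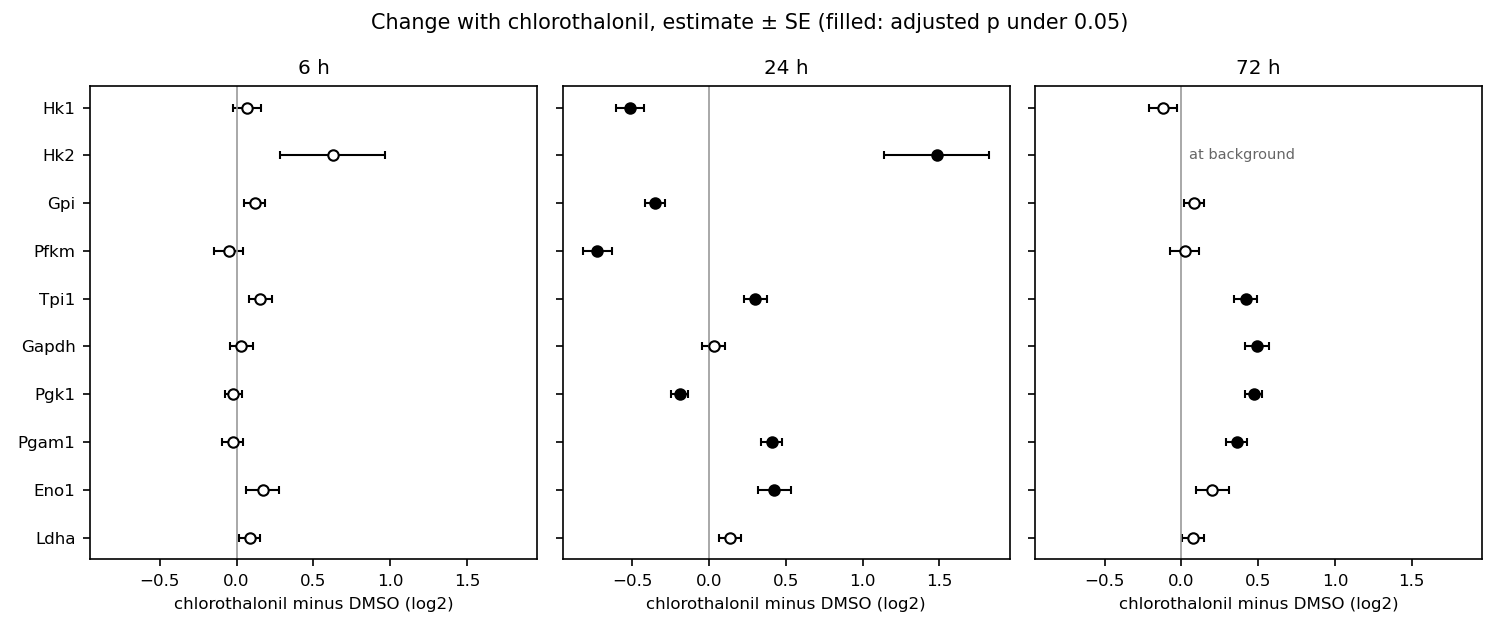
Chlorothalonil minus DMSO on the log2 scale (x) for each member (y) at 6, 24 and 72 h, as estimate ± SE from limma with 3 arrays per group; filled points had an adjusted p under 0.05, and Gapdh comes from its shared probe set in the fit over all probe sets. All points are open at 6 h, both signs are filled at 24 h, and Tpi1, Gapdh, Pgk1 and Pgam1 are filled on the higher side at 72 h.

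At 72 h, Gapdh, Tpi1, Pgk1 and Pgam1 were higher with chlorothalonil, while Eno1 and Ldha, also of the lower pathway, were not called. Of the 9 tested members, 3 were called, Pgk1, Tpi1 and Pgam1, all higher, and none was lower. Among all genes, 64.3% were called and 37.2% were higher, so the share of members called was below that of all genes. Gapdh was higher on all 4 probe sets, where 29.4% of probe sets were called higher and 58.9% were called. On the poly-A scale none of these 4 genes was higher: Tpi1 read -0.25, Gapdh -0.18, Pgk1 -0.20 and Pgam1 -0.31, none of them called, and all genes had a median of -0.60.

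Gapdh had 14.42, 14.66 and 14.63 on treated arrays, against 14.06, 14.11 and 14.06 on DMSO arrays. All treated arrays lay above all DMSO arrays, and the change was 0.49 ± 0.076 (SE; limma over all probe sets, adjusted p = 6.09e-05). The middle control probe set had 13.66, 13.87 and 13.89 on treated arrays, against 13.20, 13.29 and 13.16 on DMSO arrays. It gave 0.59 ± 0.083, the 5′ control set 0.45 ± 0.066 and the 3′ control set 0.43 ± 0.071 (SE; limma over all probe sets, adjusted p = 2.37e-05, 3.65e-05 and 0.000109). The 3′ minus 5′ difference of the control sets, a sign of RNA integrity, ran from -0.15 to -0.053 on treated arrays and from -0.13 to -0.036 on DMSO arrays at 72 h. At 24 h it ran from -0.26 to -0.20 on treated arrays and from -0.232 to -0.227 on DMSO arrays. It was thus closer to 0 at 72 h in both groups. For the beta-actin control sets the same difference was further from 0 at 72 h. It ran from 1.03 to 1.16 on treated arrays and from 1.23 to 1.32 on DMSO arrays at 24 h. At 72 h it ran from 1.66 to 1.81 on treated arrays and from 1.51 to 2.02 on DMSO arrays. The part of these differences in the results was not tested. The rat genome holds many Gapdh copies, so signal from these cannot be told apart from that of Gapdh.

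Pgk1 had 14.76, 14.79 and 14.73 on treated arrays, against 14.28, 14.34 and 14.25 on DMSO arrays. The groups were far apart, and the change was 0.47 ± 0.056 (SE; limma, adjusted p = 3.41e-06). Its second probe set gave 0.95 ± 0.071 (SE; limma over all probe sets, adjusted p = 4.53e-08), and its fall from 24 to 72 h in DMSO was also larger, at -1.96 against -1.08 on the brightest set. Tpi1 had 12.73, 12.95 and 12.90 on treated arrays, against 12.39, 12.50 and 12.43 on DMSO arrays. It was higher by 0.42 ± 0.075 (SE; limma, adjusted p = 0.000166), without overlap. Pgam1 had 14.15, 14.25 and 14.29 on treated arrays, against 13.90, 13.89 and 13.81 on DMSO arrays, and was higher by 0.36 ± 0.069 (SE; limma, adjusted p = 0.000298).

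The remaining members were not called at 72 h. Eno1 had 12.37, 12.73 and 12.79 on treated arrays, against 12.32, 12.54 and 12.42 on DMSO arrays, a difference of 0.20 with a 95% interval from -0.03 to 0.43 (limma, adjusted p = 0.114). Its groups overlapped through treated replicate 1, the lowest treated array, and without that array Eno1 was called at 0.33 and Gpi at 0.15 (limma, adjusted p = 0.00934 and 0.0449). With all arrays, Gpi differed by 0.08, Ldha by 0.08, Pfkm by 0.02 and Hk1 by -0.12, and all 4 had overlapping groups. Their 95% intervals ran from -0.06 to 0.22, -0.07 to 0.22, -0.18 to 0.22 and -0.31 to 0.08. Hk2 lay at background in both groups, so no fold is given. The treatment effect differed between 6 and 24 h for 4 of 9 members, where 63.0% of all genes did, and between 24 and 72 h for 5 of 9, where 57.6% did. One of those called between 24 and 72 h was Hk2, which has no measured effect at 72 h.

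**Figure D3:**
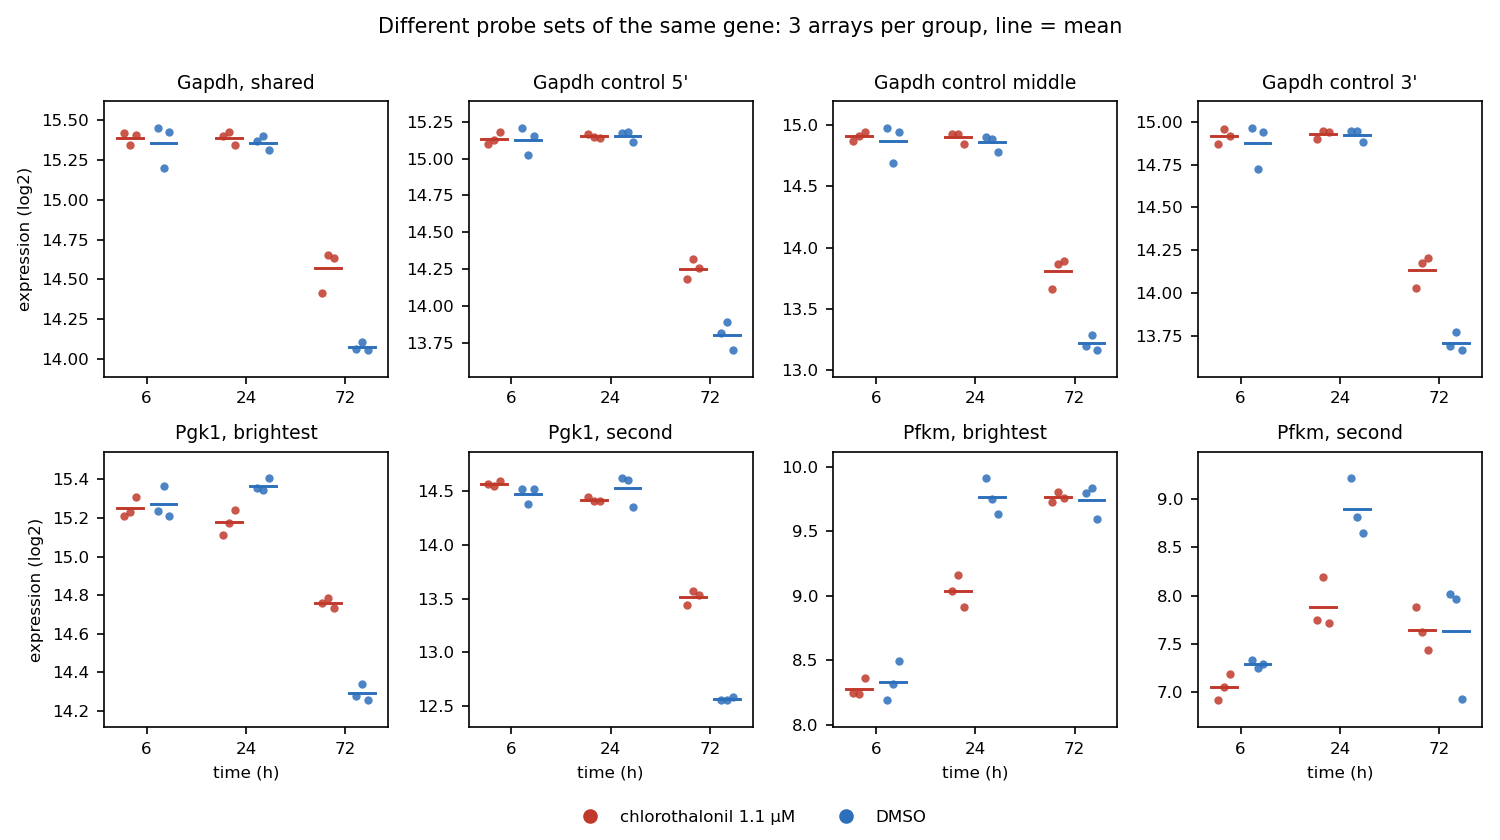
Log2 expression (y) at 6, 24 and 72 h (x) for the 4 Gapdh probe sets and for 2 probe sets each of Pgk1 and Pfkm, in chlorothalonil arrays (red, left) and DMSO arrays (blue, right); lines are means of 3 arrays. The Gapdh panels share their shape, the second Pgk1 set falls further in DMSO, and the Pfkm sets part at 72 h.

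The Pfkm probe sets disagreed over time. In DMSO from 24 to 72 h the brightest set read -0.02 and was not called, while the second read -1.26 ± 0.24 (SE; limma over all probe sets, adjusted p = 0.000382). The hexokinase 3′ control set, assigned to Hk1, differed likewise from the brightest Hk1 set over that interval, at -1.79 against -0.17. At 24 h the 3′ control set read -0.57 with chlorothalonil and was not called (limma over all probe sets, adjusted p = 0.18), and the brightest Hk1 set had -0.52. The hexokinase 5′ control set was lower at 24 h, with 3.86, 3.87 and 3.91 on treated arrays and 4.74, 4.70 and 4.22 on DMSO arrays. Its treated arrays lay at background, so it was at least 1.47-fold lower. In DMSO it reached background again at 72 h, at least 1.47-fold below 24 h. Outside DMSO at 24 h, only treated 6 h replicate 1 exceeded log2 4, at 4.16. This set thus passed the filter through the group where it was high, and its differences from that group are a description only.

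**Figure D4:**
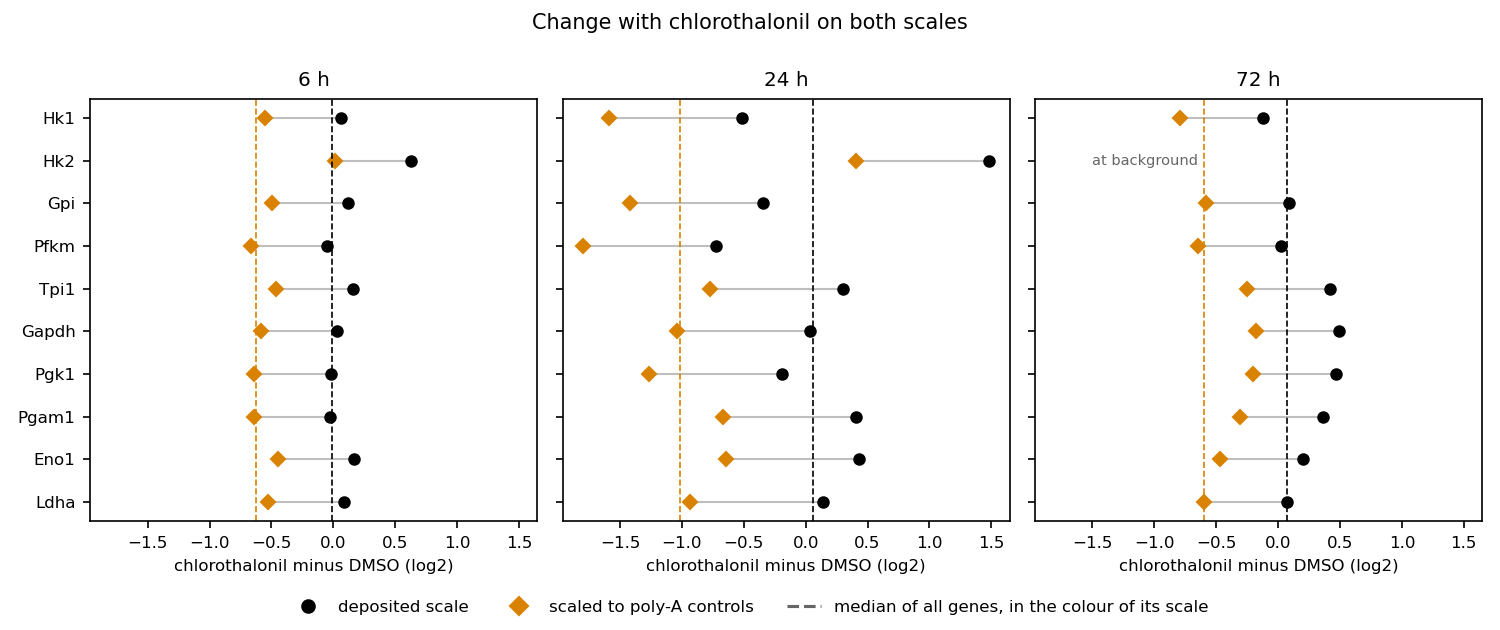
Chlorothalonil minus DMSO on the log2 scale (x) for each member (y) at 6, 24 and 72 h, on the deposited scale (black circles) and scaled to the poly-A controls (orange diamonds); dashed lines are the medians of all genes on each scale. Each member shifts with the all-gene median, to -0.62, -1.02 and -0.60 on the poly-A scale, and at 72 h Gapdh, Pgk1, Tpi1 and Pgam1 lie right of the median on both scales.

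Among other forms of the same enzymes, Eno2, Pfkp and Pfkl were higher with chlorothalonil at 6 h. Of 19 listed isoenzymes, 9 were tested, and 6, 8 and 7 of them were called at 6, 24 and 72 h, where 59.6%, 70.2% and 64.3% of all genes were. With chlorothalonil 5 were higher and 1 lower at 6 h, 5 higher and 3 lower at 24 h, and 7 higher and none lower at 72 h. Their median log2 changes were 0.50, 0.31 and 0.56 at 6, 24 and 72 h, against -0.01, 0.06 and 0.07 for all genes. Eno2, the neuronal enolase, had a mean of 11.08 in treated cells, against 9.55 in DMSO cells at 6 h, a change of 1.53 ± 0.094 (SE; limma, adjusted p = 5.82e-09). It was not called at 24 h, at 0.06, and was 0.45 higher at 72 h. Pfkp, the platelet phosphofructokinase, was higher at each time, by 0.77, 1.31 and 2.10 at 6, 24 and 72 h (limma, adjusted p = 0.0209, 0.00041 and 5.98e-06). Pfkl, the liver form, was higher by 0.61 and 0.44 at 6 and 24 h and had 0.15 at 72 h, not called, so Pfkm was the phosphofructokinase form that was lower at 24 h.

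Aldoa, the aldolase that makes triose phosphates, had 0.16 at 6 h, not called, and was 0.31 and 0.28 higher at 24 and 72 h (limma, adjusted p = 0.00435 and 0.0103). Ldhb, the heart-type lactate dehydrogenase, had -0.01 at 6 h, not called, and was -0.39 lower at 24 h and 0.56 higher at 72 h (limma, adjusted p = 0.00202 and 0.000112). Eno3 and Aldoc were chosen after their values were seen. Eno3, the muscle enolase, was higher by 1.12, 2.04 and 1.05 at 6, 24 and 72 h. Aldoc, the brain aldolase, had 5.10 in treated cells, against 8.62 in DMSO cells at 24 h, a change of -3.52 ± 0.31 (SE; limma, adjusted p = 1.03e-07), and was 1.78 higher at 72 h. Its DMSO mean at 72 h was 3.78, below log2 4, so the size of that last difference is uncertain.

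Of 18 listed transporters and regulators, 11 were tested: 5 were higher and 3 lower at 6 h, 2 higher and 5 lower at 24 h, and 6 higher and 4 lower at 72 h. The sums, 8, 7 and 10 of 11 at 6, 24 and 72 h, stand beside 59.6%, 70.2% and 64.3% of all genes called. Slc2a1, the GLUT1 glucose carrier, had a mean of 11.15 in treated cells, against 9.78 in DMSO cells at 6 h. It was higher by 1.37 ± 0.11 (SE; limma, adjusted p = 7.93e-08), had 0.19 at 24 h, not called, and was 0.58 higher at 72 h. Pfkfb3, which makes the activator of phosphofructokinase, had 0.10 at 6 h, not called, and was -0.29 at 24 h and 0.30 at 72 h, both called (limma, adjusted p = 0.0184 and 0.0161). Pfkfb4, of the same family and chosen after its values were seen, was lower by -2.38 ± 0.21 at 24 h (SE; limma, adjusted p = 8.73e-08).

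Of 14 listed genes of pyruvate entry into mitochondria, 12 were tested: 3 were higher and 4 lower at 6 h, 3 higher and 4 lower at 24 h, and 7 higher and 3 lower at 72 h. This made 7, 7 and 10 of 12 called, against 59.6%, 70.2% and 64.3% of all genes. Pdk1, a kinase that switches off pyruvate dehydrogenase, was higher by 0.25 at 6 h, had -0.04 at 24 h, not called, and was higher by 1.37 ± 0.10 at 72 h (SE; limma, adjusted p = 2.22e-08). Pdha1, a subunit of that enzyme, had -0.06 at 6 h, not called, and was lower by -0.85 and -0.29 at 24 and 72 h (limma, adjusted p = 4.07e-09 and 0.00038). Pdhb and Pdhx, of the same complex and chosen after their values were seen, had higher means with chlorothalonil. Pdhb had 12.55 against 11.88 in DMSO at 24 h, and 12.48 against 11.72 at 72 h. Pdhx had 9.80 against 8.15, and 8.97 against 8.10, while Dld moved less. Among the other listed kinases at 72 h, Pdk2 had a lower treated mean, 8.88 against 9.37, and Pdk3 and Pdk4 had higher ones. In the pentose phosphate list, 6 of 7 genes were tested, with 2 higher and 2 lower at 6 h, 2 higher and 1 lower at 24 h, and 3 higher and 1 lower at 72 h. Thus 4, 3 and 4 of 6 were called, where 59.6%, 70.2% and 64.3% of all genes were. Pgd, which oxidises 6-phosphogluconate, had 0.17 and 0.06 at 6 and 24 h, not called, and was 0.22 higher at 72 h (limma, adjusted p = 0.0314).

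The gluconeogenesis list had 3 of 7 genes tested, all 3 higher at 6 h and at 72 h, with 1 higher and 1 lower at 24 h. The list of glycogen and glycerol 3-phosphate branches had 9 of 11 tested, with 7 higher and none lower at 6 h, 3 higher and 3 lower at 24 h, and 4 higher and 2 lower at 72 h. The 7 at 6 h include Pygm, which passed the filter only through the treated 6 h arrays, where it was high. The all-gene shares called at 6, 24 and 72 h, 59.6%, 70.2% and 64.3%, apply to both lists, and counts over so few genes are a description only. Directions in these neighbouring lists are on the deposited scale, and their genes were not run on the poly-A scale. Pkm, Slc16a3 and Fbp1 were among the listed genes not tested here.

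**Figure D5:**
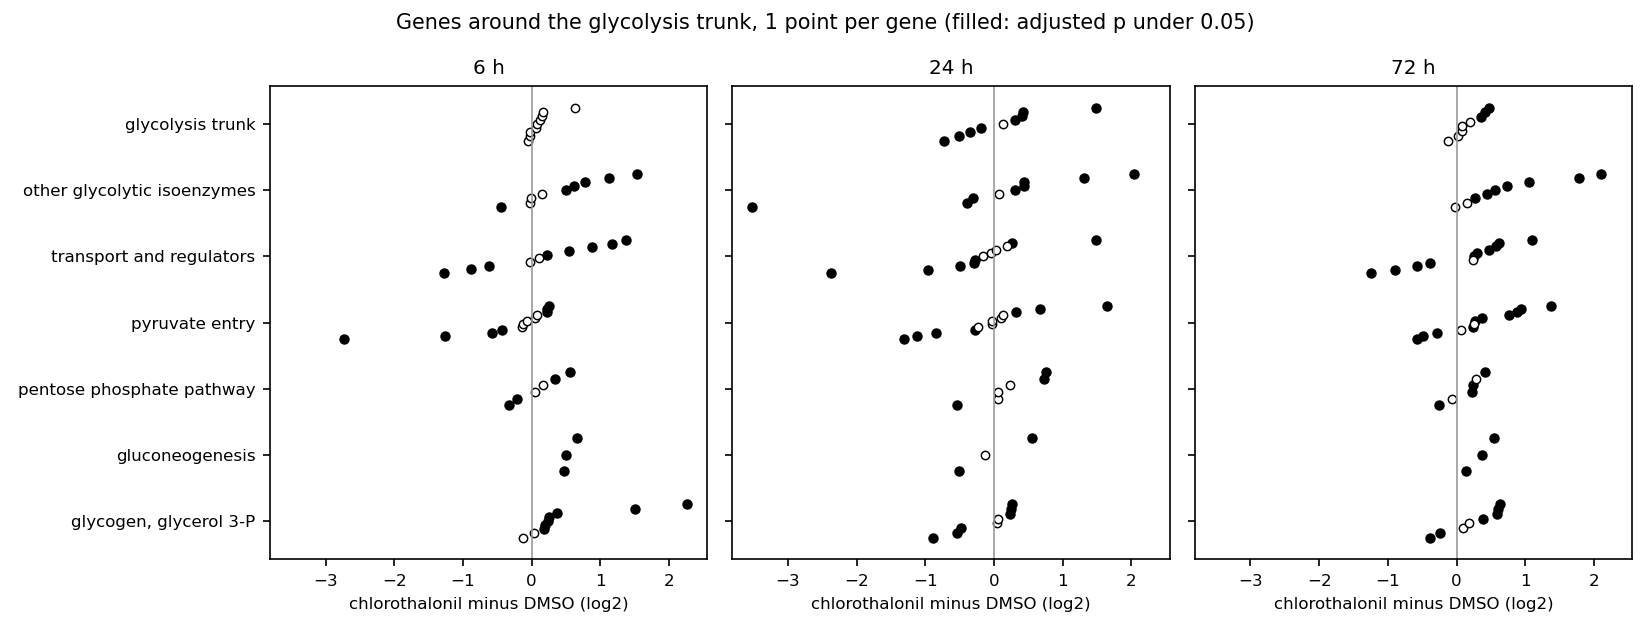
Chlorothalonil minus DMSO on the log2 scale (x) for the 9 tested members and for 6 lists of neighbouring genes (y) at 6, 24 and 72 h, 1 point per gene; filled points had an adjusted p under 0.05 by limma, and genes at background in both groups are not drawn. At 6 h every trunk member is open, while the other lists hold filled points; the outermost, Pygm at 2.27 and Pdk2 at -2.73, each had 1 group at background, so Pygm was at least 1.39-fold higher and Pdk2 at least 4.52-fold lower. Pygm passed the filter only through the treated 6 h arrays, where it was high, so its filled point is a description only.

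Over the 18 arrays, the shared Gapdh probe set followed Tpi1 most closely among the members, with a Pearson correlation of 0.97, then Pgk1 at 0.96, Eno1 at 0.94, Ldha at 0.94, Hk2 at 0.91, Pgam1 at 0.87 and Gpi at 0.82. Hk1 and Pfkm ran the other way, at -0.41 and -0.61. Genes of the pathway and marker lists and genes with provisional locus names were left out of a wider ranking. Among the remaining genes tested, Dcbld2, Hsd17b12, Higd1a, Xrcc5 and Gcat had the highest correlations with the shared Gapdh probe set, from 0.99 to 0.96. All these arrays share the step from 24 to 72 h, and the correlations are a description with no test.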

How the data were processed

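The 1 table from the authors holds log2 expression values of 31099 probe sets on 18 arrays, as deposited. Per the submitters' processing notes it came from GCRMA, with no version or settings named. As usually run, GCRMA brings arrays to a common distribution, which removes a change shared by most transcripts. The annotation names a single gene for 20832 probe sets, more than 1 for 436 and no gene for 9831, and 20764 symbols were updated by Entrez identifier through RefSeq GRCr8.

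Probe sets above log2 4 on at least 3 arrays were kept (16686), and the brightest single-symbol probe set per gene left 9148 genes. A model with 6 group means was fitted with limma 3.58.1 in R 4.3.3 (12 residual degrees of freedom), two-sided, with Benjamini-Hochberg adjustment over all genes and a threshold of 0.05. The fit was tested on simulated data. The probe-set fit, and poly-A scaling without DMSO 24 h replicate 1, were added after the data were seen. Named genes were all members, 14 listed pathway genes where tested, and the 5 genes most like Gapdh. Members and lists were chosen with earlier results of these data known. The number of arrays limits precision. Alternatives covered scaling, filter, model, probe sets and left-out arrays. Figures were drawn with matplotlib 3.10.9.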

Additional observations from a re-analysis of the deposited data

Results flagged for a closer look

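The treatment effect of 10 member values, 1 of them with no measured size, differed between times by a test of the difference itself, in limma with adjusted p-values. Of the 9 members, 4 differed between 6 and 24 h, where 63.0% of all genes did. The effect at 24 h minus that at 6 h was -0.58 for Hk1, -0.47 for Gpi, -0.67 for Pfkm and 0.43 for Pgam1 (limma, adjusted p = 0.00115, 0.000477, 0.000459 and 0.00118).

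Between 24 and 72 h, 5 of 9 members differed, where 57.6% of all genes did. The effect at 72 h minus that at 24 h was 0.40 for Hk1, 0.43 for Gpi, 0.75 for Pfkm and 0.66 for Pgk1 (limma, adjusted p = 0.0163, 0.000986, 0.000226 and 5.54e-06). The fit also called Hk2, at -1.26, but both Hk2 groups lay at background at 72 h, so its effect there has no measured value and this difference is not read. For Gapdh on its shared probe set it was 0.46 ± 0.11 (SE; limma over all probe sets, adjusted p = 0.00242). The effects at 24 and 72 h were 0.03 and 0.49 for Gapdh, and -0.19 and 0.47 for Pgk1, whose direction turned. Scaled to the poly-A controls, none of the 9 members differed between times in either interval by limma, with 3 between 6 and 24 h and 2 between 24 and 72 h at an unadjusted p under 0.05. Groups of 3 arrays are too small for a test of single outlying arrays.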

How the results depend on the processing

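Over 847 values of single members under alternatives, 812 stayed on their side of the threshold with no called value turned, 19 passed it only under the alternative, 2 no longer passed it and 14 turned. All 14 turned under scaling to the poly-A controls. At 24 h the turned values were -0.77 for Tpi1, -0.67 for Pgam1, -0.65 for Eno1, -0.94 for Ldha and -1.04 for Gapdh, or -0.40, -0.28, -0.22, -0.55 and -0.63 without DMSO 24 h replicate 1. At 72 h they were -0.25 for Tpi1, -0.20 for Pgk1, -0.31 for Pgam1 and -0.18 for Gapdh. On that scale Gapdh and Ldha, not called on the deposited scale at 24 h, were called lower, with or without DMSO 24 h replicate 1. With all arrays on that scale, not every turned value at 24 h was called, and none at 72 h was. The cause of the turns was not tested. Under poly-A scaling the number of members called was 1 at 72 h, 4 in DMSO and 0 in chlorothalonil from 6 to 24 h, 4 in chlorothalonil from 24 to 72 h, and 0 for both differences between times, where 3 and 2 members had an unadjusted p under 0.05 by limma. At 6 h the number called was 1 with quantile normalization, with a trended robust fit, with array weights and with only the groups compared, and 4 with median centring. At 72 h array weights called 5. Leaving out 1 array gave 0 to 1 calls at 6 h, 8 to 9 at 24 h and 3 to 5 at 72 h, the 5 without treated replicate 1. Replicate numbers were not treated as pairs in the main fit: 3 of 9 same-number correlations exceeded 0.1, with a range from -0.044 to 0.30. Arrays with different numbers were not compared in this way, so these values cannot show whether the arrays were paired. A replicate block called 1 member at 6 h, Tpi1, and changed no other count of calls by over 1.5 times. Hk2 at 24 h read 0.41 on the poly-A scale, and Pgk1 at 24 h read -0.12 as the mean of its probe sets; neither was then called. The 3 arrays per group limit the precision, and levels at background have no order.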
